A study of Mus musculus with 10 samples.

Results

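The genes described here are the 10 transcripts that encode the negative limb of the circadian clock and the transcription factors that carry its output in liver. They are the Period genes Per1, Per2 and Per3, the Cryptochrome genes Cry1 and Cry2, Ciart, the PAR-bZIP activators Dbp, Tef and Hlf, and the D-box repressor Nfil3. The members were chosen by symbol, and each of the 10 symbols matched 1 Ensembl gene among the 41388 genes counted. Liver RNA of adult C57B/6J mice aged about 12 wk was sequenced from oligo-dT selected libraries, 1 per mouse. Per the labels, 3 WT fasting mice and 5 NAMPT LKO fasting mice were fasted for 24 h, whereas 2 WT refed mice were fasted for 22 h and given food again for 2 h. The WT mice were littermates with an intact floxed Nampt gene and no Cre, and NAMPT LKO mice lacked Nampt in hepatocytes through Albumin-cre, so the other liver cells kept the gene. No refed NAMPT LKO group and no unfasted group were analysed here. Differences from WT refed livers therefore cannot be divided between fasting and refeeding. NAMPT LKO fasting livers differed from WT refed livers in genotype and feeding together, so that comparison alone cannot separate them. The study's text describes a shorter fast and random-fed controls, and the labels' times are used throughout. The hour of the day at which livers were taken is not given in the sources used here. The phase of the daily cycle could therefore not be compared between the groups.

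PER and CRY proteins form the complex that enters the nucleus and represses CLOCK and BMAL1, the activators that drive Per, Cry, Ciart and Dbp through E-box elements. CIART (also called CHRONO) is a further repressor of the same activators. DBP, TEF and HLF bind D-box elements and activate genes of hepatic metabolism in a daily rhythm, and NFIL3 (also called E4BP4) represses through the same element. In liver, feeding time is a strong signal for the phase of these genes, and Nampt, the rate-limiting enzyme of NAD salvage, is itself an output of CLOCK and BMAL1.

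RefSeq promoter windows of GRCm38.p6 were found for 9 of the 10 members, and Per2 had none in the table used. The 250 bases before each start were searched on both strands for the E-box CACGTG, the E'-box CACGTT, the D-box TTATGNAA, the cAMP response element TGACGTCA and the ROR element TAGGTCA. None of these motifs contains another. Stretches of 4 members with elements through which the clock proteins above act are shown, with the motif on either strand in capitals. Those of Cry2 and Tef are not shown.
Ciart: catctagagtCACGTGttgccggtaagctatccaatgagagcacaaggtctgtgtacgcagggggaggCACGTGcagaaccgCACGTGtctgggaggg
Cry1: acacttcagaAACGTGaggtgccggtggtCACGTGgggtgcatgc
Per1: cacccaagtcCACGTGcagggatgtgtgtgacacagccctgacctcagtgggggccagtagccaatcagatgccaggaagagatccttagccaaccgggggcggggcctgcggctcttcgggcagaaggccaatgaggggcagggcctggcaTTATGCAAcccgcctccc
Per3: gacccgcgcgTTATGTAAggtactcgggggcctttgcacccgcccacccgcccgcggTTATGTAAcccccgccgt

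The Ciart stretch lies on the minus strand at chr3:95882257-95882354 and holds 3 E-boxes. The Cry1 stretch lies on the minus strand at chr10:85185099-85185143 and holds an E'-box, read here as AACGTG, and an E-box. The Per1 stretch lies on the plus strand at chr11:69098773-69098942, before 1 of 2 RefSeq starts, and holds an E-box and a D-box. It lies inside the annotated Per1 gene, which begins at 69095217, and the window of the other start held none of the 5 motifs. The Per3 stretch lies on the minus strand at chr4:151044806-151044880 and holds 2 D-boxes. Among all 32851 windows of the same length, 6.02% held the E-box, 3.85% the E'-box and 3.07% the D-box. Of the 9 members with a window, 4 held an E-box (Ciart, Cry1, Per1 and Tef), 2 an E'-box (Cry1 and Cry2) and 2 a D-box (Per1 and Per3). Members were counted as genes, of which Per1 and Tef had 2 windows each, whereas the percentages are shares of windows. Hlf held the cAMP response element, found in 1.55% of windows, and Nfil3 the ROR element, found in 2.23%. The searched window of Dbp held none of the 5 motifs, which says only that these letters are not in those 250 bases. A match is a description of the sequence and no evidence of binding.

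**Figure D1:**
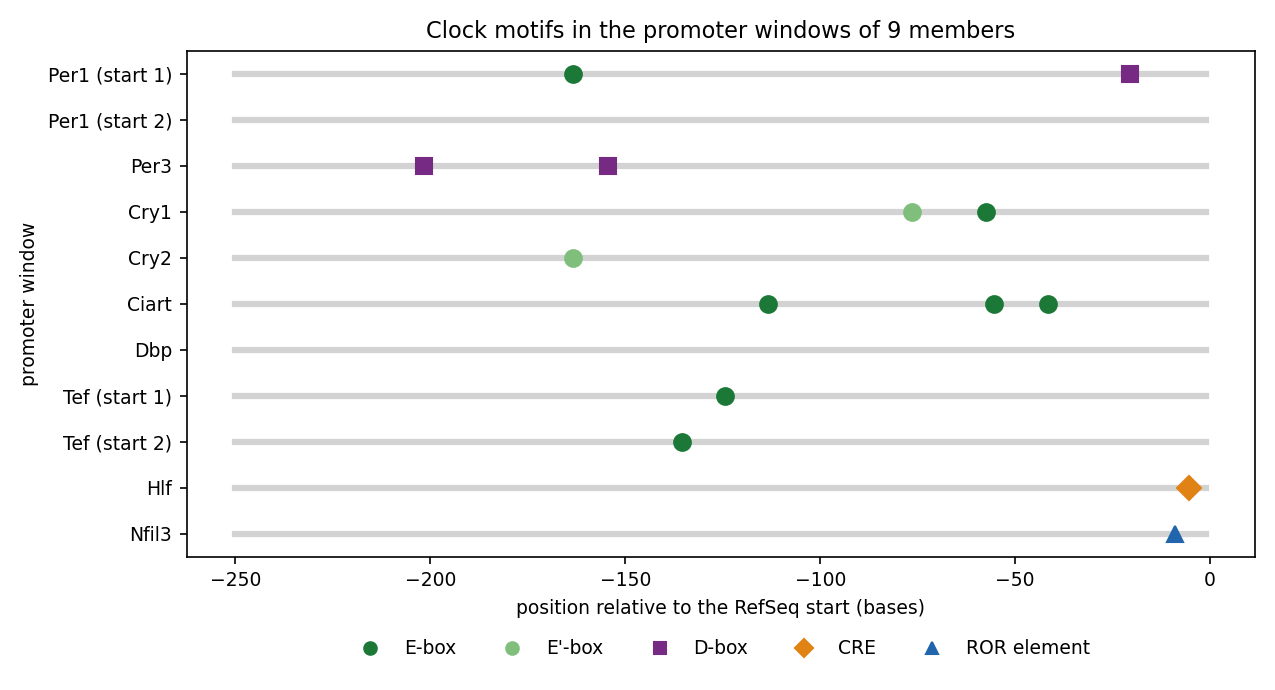
Motifs in the 250 bases before each RefSeq start of 9 members. The x axis is the position in bases relative to the start and each grey line is 1 promoter window, with symbols for the E-box, E'-box, D-box, cAMP response element (CRE) and ROR element on either strand. Ciart holds 3 E-boxes, and the Dbp window and 1 of the 2 Per1 windows are empty.

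Library totals ranged from 30603080 to 43434139 counts. Mitochondrial transcripts took 7.42% of the counts in WT fasting liver 3 and 21.1% in NAMPT LKO liver 5, against 10.4% to 12.9% in the other 8 livers. NAMPT LKO liver 5 also stood apart from its group over all genes. The median chi-square between its counts and those of another NAMPT LKO liver was 10.5 to 14.4. Pairs of the other NAMPT LKO livers had 2.91 to 3.64. Albumin and the other hepatocyte markers summed to between 67708 and 100005 CPM in every library, and the pancreas markers Cpa1, Prss1 and Amy2a5 were at 0 throughout. Markers of bile duct cells summed to 34.6 to 51.0 CPM in NAMPT LKO livers. These sums lay above the 15.2 to 21.2 CPM of WT fasting livers and the 20.7 to 23.1 CPM of WT refed livers. Among the 5 markers, Spp1 reached the highest level, at 8.70 to 35.5 CPM over all livers. Sox9 reached at most 10.8 CPM, Epcam 2.61 CPM, Krt19 1.86 CPM and Krt7 1.41 CPM. None of the 5 markers was called between the fasted genotypes. Nampt, the targeted gene, fell from a mean of 92.4 ± 42.3 CPM (SD, n = 3) in WT fasting livers to 13.2 ± 1.49 CPM (SD, n = 5) in NAMPT LKO livers. All values below are TMM-normalized CPM, which are counts relative to library size, unless RPKM, which also divides by exonic length, is named. A gene was called where its p from edgeR's quasi-likelihood test, adjusted over 13444 genes, was at or under 0.05. Because whole liver was sequenced, fewer cells of a type and less RNA per cell cannot be told apart. The p-values set group differences against the spread between these mice. That spread was estimated over all groups together, with information shared between genes.

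Per length, Nfil3 had the highest mean level of the 10 genes over all livers (14.7 RPKM), followed by Tef (10.8 RPKM), Hlf (10.1 RPKM), Per1 (8.13 RPKM) and Dbp (5.60 RPKM). Cry2 (3.25 RPKM), Per2 (3.23 RPKM), Cry1 (2.78 RPKM), Ciart (1.94 RPKM) and Per3 (0.790 RPKM) followed. Each gene's range over the 10 livers overlapped that of its neighbours in this order. The lowest single count was 25, for Ciart in NAMPT LKO liver 1, so that counting error was largest for this gene.

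**Figure D2:**
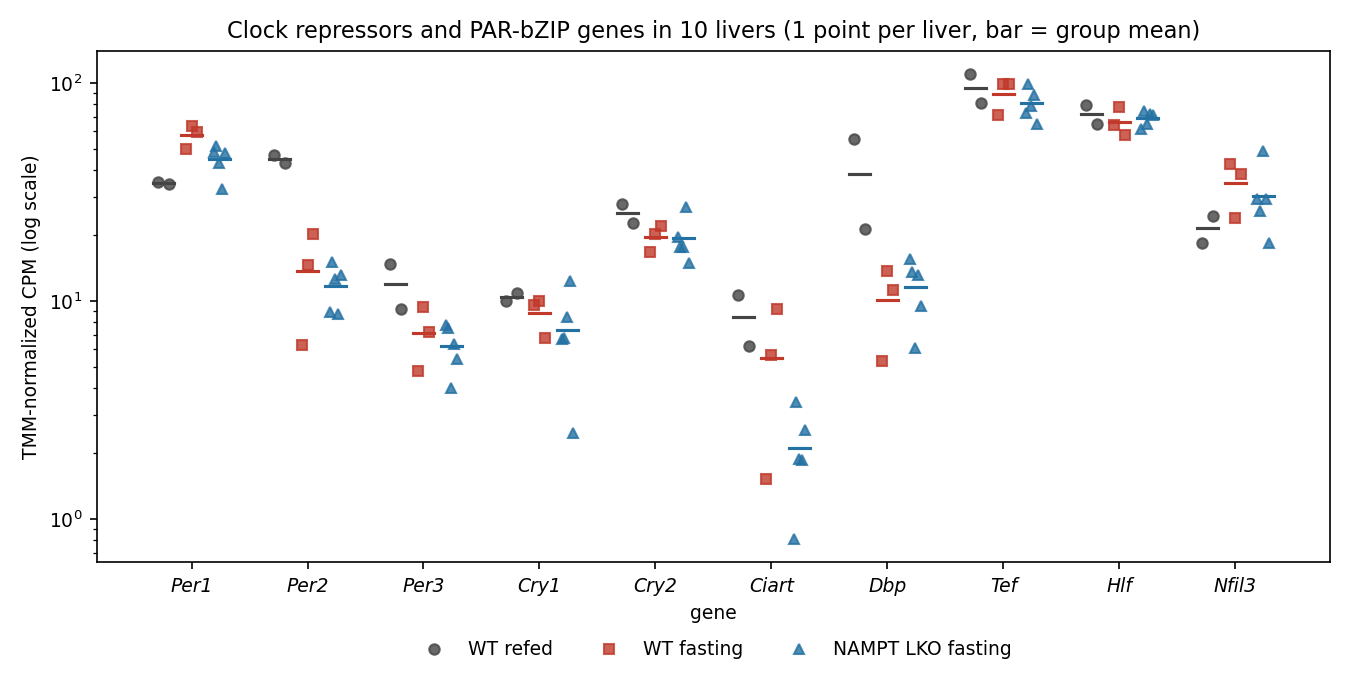
TMM-normalized CPM of each gene (x axis) in every liver, on a log10 y axis. Points are livers, coloured and shaped by group, and bars are group means. The 2 WT refed livers lie above all 8 fasted livers for Per2 and Dbp, and below all 3 WT fasting livers for Per1.

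Per2 was lower and Per1 higher in WT fasting than in WT refed livers, and the third Period gene did not pass the threshold. Per2 was measured at 46.6 and 42.9 CPM in the WT refed livers. In the WT fasting livers it was at 6.25, 14.6 and 20.3 CPM, and in the NAMPT LKO livers at 8.85, 15.0, 12.6, 8.69 and 13.2 CPM. Both refed livers lay above all fasted livers of either genotype, and the 2 fasted groups overlapped. Per2 was lower by 1.70 on the log2 scale (standard error 0.38, adjusted p = 0.0232) in WT fasting than in WT refed livers, a 3.26-fold difference. In NAMPT LKO fasting against WT refed livers it fell by 1.94 (standard error 0.33, adjusted p = 0.00490). Both comparisons use the same 2 WT refed livers and are not independent. Without WT refed liver 1 the adjusted p of Per2 was 0.133 in the WT comparison and 0.0538 in the NAMPT LKO comparison, and without WT refed liver 2 it was 0.130 and 0.0505. Without WT fasting liver 2 it was 0.0692 in the WT comparison, and with any 1 library left out the fold changes stayed between -2.12 and -1.37 in WT livers and between -2.05 and -1.85 for NAMPT LKO against WT refed livers.

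Per1, whose promoter stretch is shown above, moved the other way in WT livers. Its level was 35.2 and 34.5 CPM in the WT refed livers and 49.9, 63.6 and 59.3 CPM in the WT fasting livers, so that the groups did not overlap. The log2 fold change was 0.72 (standard error 0.19, adjusted p = 0.0399), with a 95% interval of 0.32 to 1.13. The NAMPT LKO livers were at 48.3, 51.2, 42.97, 32.5 and 47.9 CPM. Of these, 4 lay above both refed livers and liver 4 lay below them, with a log2 fold change of 0.35 against WT refed (standard error 0.17, adjusted p = 0.216). The difference of Per1 between WT fasting and WT refed livers lost its call without any single liver of the 2 groups. The adjusted p was 0.211 and 0.270 without WT refed livers 1 and 2, and 0.0503, 0.115 and 0.0798 without WT fasting livers 1, 2 and 3, with fold changes from 0.65 to 0.81. Scaling by library size alone gave 0.66 (adjusted p = 0.0586).

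Per3, the third Period gene and the least abundant of the 10 per length, was at 14.8 and 9.20 CPM in WT refed livers, at 4.77, 9.36 and 7.20 CPM in WT fasting livers, and at 7.72, 7.50, 3.98, 6.35 and 5.44 CPM in NAMPT LKO livers. All 5 NAMPT LKO livers lay below both refed livers, and WT fasting liver 2 lay above WT refed liver 2. Its log2 fold change was -0.76 (standard error 0.33, adjusted p = 0.201) in WT fasting and -0.96 (standard error 0.29, adjusted p = 0.0602) in NAMPT LKO fasting against WT refed livers. The second of these passed with DESeq2 (adjusted p = 0.0206), voomWithQualityWeights (0.0213), edgeR's exact test (0.0229), library size alone (0.0493) and no filter (0.0266).

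Neither Cryptochrome gene passed the threshold in any comparison. Cry1, which encodes the stronger of the 2 repressors, was at 10.02 and 10.9 CPM in WT refed, at 9.53, 9.98 and 6.77 CPM in WT fasting, and at 6.71, 6.73, 8.45, 12.4 and 2.48 CPM in NAMPT LKO livers. The lowest value belonged to NAMPT LKO liver 5, the library with the highest mitochondrial share, and the highest to NAMPT LKO liver 4. Its log2 fold change was -0.26 (95% interval -1.26 to 0.74) for WT fasting against WT refed and -0.25 (-1.06 to 0.56) for NAMPT LKO against WT fasting livers. Without NAMPT LKO liver 5 the second value was -0.03. Cry2 was steadier, at 27.7 and 22.8 CPM in WT refed, 16.8, 20.4 and 22.0 CPM in WT fasting and 19.7, 17.8, 17.6, 26.9 and 14.9 CPM in NAMPT LKO livers. Both refed livers lay above the 3 WT fasting livers for Cry2, by a log2 fold change of -0.36 (95% interval -0.85 to 0.13, adjusted p = 0.377). Between the fasted genotypes its fold change was -0.03 (95% interval -0.42 to 0.37).

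Ciart was lower in NAMPT LKO fasting than in WT refed livers, and the WT fasting livers spread over most of the range between them. It was at 10.7 and 6.20 CPM in WT refed, at 1.53, 5.64 and 9.22 CPM in WT fasting, and at 0.811, 3.43, 1.88, 1.87 and 2.57 CPM in NAMPT LKO livers. Every NAMPT LKO liver lay below both refed livers and below 2 of the 3 WT fasting livers, while WT fasting liver 1 lay among the NAMPT LKO livers. Ciart fell by 2.00 on the log2 scale (standard error 0.55, adjusted p = 0.0416) in NAMPT LKO fasting against WT refed livers. It was called in this comparison alone, in which genotype and feeding differ together. In WT fasting against WT refed livers the log2 fold change was -0.63 (95% interval -1.999 to 0.75, adjusted p = 0.601). In NAMPT LKO against WT fasting livers it was -1.37 (95% interval -2.49 to -0.25), with an unadjusted p of 0.0211 that became 0.801 after adjustment. That difference was -1.82 without WT fasting liver 1 and -0.75 without WT fasting liver 3, and it was called in neither. The call against WT refed livers was lost without WT refed livers 1 and 2 (adjusted p = 0.315 and 0.133) and without NAMPT LKO livers 1, 3 and 4 (0.0666, 0.0805 and 0.0776).

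Dbp was the only PAR-bZIP activator called, and Tef and Hlf, which bind the same element, were not. Its level was 55.1 and 21.3 CPM in WT refed livers, 5.29, 13.7 and 11.3 CPM in WT fasting livers and 15.6, 13.6, 6.06, 13.2 and 9.52 CPM in NAMPT LKO livers. Both refed livers lay above all 8 fasted livers but differed from each other 2.58-fold. Dbp was lower by 1.93 on the log2 scale (standard error 0.48, adjusted p = 0.0349) in WT fasting than in WT refed livers. In NAMPT LKO fasting against WT refed livers it fell by 1.72 (standard error 0.41, adjusted p = 0.0243). Without WT refed liver 1 these values were -1.10 (adjusted p = 0.368) and -0.89 (adjusted p = 0.398), and without WT refed liver 2 they were -2.46 (adjusted p = 0.0533) and -2.26 (adjusted p = 0.0381). The WT call was also lost without WT fasting livers 1, 2 and 3 (adjusted p = 0.0903, 0.0563 and 0.0634). Between the fasted genotypes Dbp had a log2 fold change of 0.20 (95% interval -0.66 to 1.07). The gene shares 491 exonic bases, 16.7% of its length, with Sphk2 on the opposite strand, which had 1736 to 3772 counts, and whether counting used strand is not given in the sources used here.

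Tef ranged from 80.5 to 110 CPM in WT refed, from 70.9 to 98.5 CPM in WT fasting and from 64.9 to 98.7 CPM in NAMPT LKO livers, so that the 3 groups overlapped. Its log2 fold change was -0.09 (95% interval -0.55 to 0.37) for WT fasting against WT refed livers and -0.15 (-0.52 to 0.22) between the fasted genotypes. Hlf ranged from 64.7 to 79.1 CPM in WT refed, from 57.5 to 77.5 CPM in WT fasting and from 61.2 to 74.2 CPM in NAMPT LKO livers. The log2 fold change of Hlf was -0.12 (95% interval -0.45 to 0.22) for WT fasting against WT refed livers. Between the fasted genotypes it was 0.05 (-0.21 to 0.32). These were the narrowest intervals among the 10 genes. These intervals exclude changes as large as the fold change of Dbp in WT livers.

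Nfil3, the repressor at the same D-box, was at 18.5 and 24.6 CPM in WT refed, at 42.4, 24.1 and 38.1 CPM in WT fasting, and at 29.4, 25.7, 48.8, 29.2 and 18.4 CPM in NAMPT LKO livers. WT fasting livers 1 and 3 lay above both refed livers, and liver 2 lay between them. The log2 fold change was 0.70 (95% interval -0.09 to 1.48, adjusted p = 0.277) for WT fasting, 0.50 (-0.23 to 1.22) for NAMPT LKO fasting, each against WT refed livers, and -0.20 (-0.81 to 0.41) between the fasted genotypes.

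**Figure D3:**
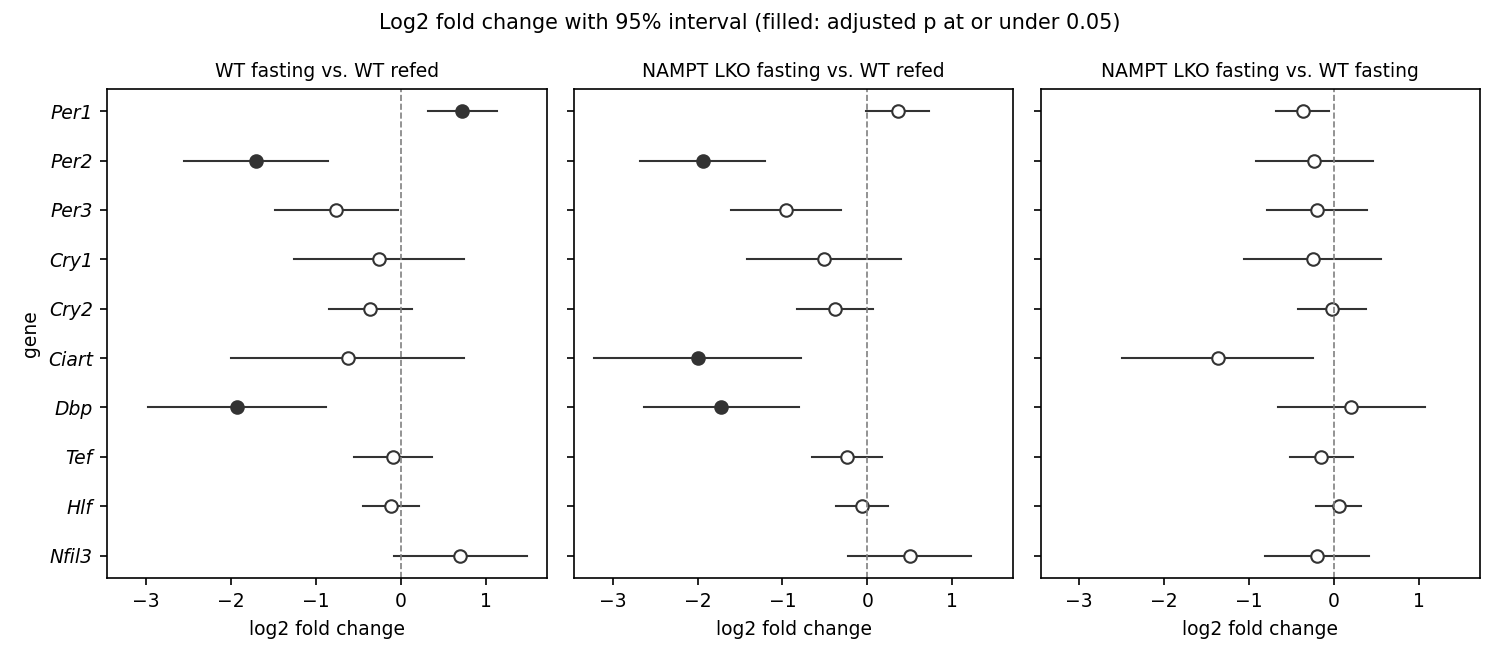
Log2 fold change of each gene (x axis) with its 95% interval in the 3 comparisons, from the fit of all 10 libraries. Filled points passed an adjusted p of 0.05. Per1, Per2 and Dbp are filled in WT fasting against WT refed, Per2, Ciart and Dbp in NAMPT LKO fasting against WT refed, and no gene is filled between the fasted genotypes.

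As a group, 3 of the 10 genes were called in WT fasting against WT refed livers, 1 higher (Per1) and 2 lower (Per2 and Dbp), where 7.04% of all genes tested were called, 2.68% higher and 4.36% lower. At an unadjusted p under 0.05, 4 of the 10 passed (1 higher and 3 lower), against 22.3% of all genes (10.4% higher and 11.9% lower). Without WT fasting livers 1, 2 and 3 this was 3, 5 and 3 of the 10. Of all genes 2661, 2653 and 2718 passed there, in place of 3002. The groups did not overlap for 5 of the 10 genes (Per1 higher, Per2, Cry1, Cry2 and Dbp lower), near the 49.7% of all genes for which this held (24.5% higher and 25.1% lower). The median log2 fold change was -0.31 for the 10 genes and 0.04 for all genes. In NAMPT LKO fasting against WT refed livers 3 genes were called, all lower (Per2, Ciart and Dbp), where 11.2% of all genes were called, 4.65% higher and 6.58% lower. At an unadjusted p under 0.05, 4 passed, all lower, against 26.1% of all genes (12.6% higher and 13.5% lower). Without NAMPT LKO liver 4 this count was 6, where 3368 of all genes passed in place of 3507. It stayed at 4 without any other NAMPT LKO liver. Groups did not overlap for 4 genes (Per2, Per3, Ciart and Dbp, all lower), against 33.5% of all genes (15.7% higher and 17.8% lower). The median was -0.45, against 0.03 for all genes. These 2 comparisons share their control livers, and all their calls for the 10 genes rest on 2 refed mice.

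NAMPT LKO and WT fasting livers, both after the same 24 h fast, were then compared, and the quasi-likelihood test of edgeR called 0 of the 10 genes. The share called among all genes was 0.00744%, which is Nampt alone. At an unadjusted p under 0.05, 2 of the 10 genes passed, Per1 (log2 fold change -0.37, 95% interval -0.69 to -0.05, adjusted p = 0.827) and Ciart, both lower, against 6.03% of all genes (2.72% higher and 3.31% lower). Without WT fasting liver 3 neither gene passed and 447 genes did in place of 811. Without WT fasting liver 2, 1 of the 10 and 683 of all genes passed, and without WT fasting liver 1, 3 of the 10 and 1012. Leaving out NAMPT LKO liver 5 gave 2 of the 10 and 1100 of all genes. DESeq2, voomWithQualityWeights and edgeR's exact test also called 0 of the 10. They had 2, 1 and 2 of the 10 at an unadjusted p under 0.05, and 854, 968 and 757 of all genes. The groups overlapped for every one of the 10 genes, while they did not for 3.99% of all genes (1.87% higher and 2.12% lower). Of the 10 log2 fold changes 8 were below 0, with a median of -0.20 against 0.00025 over all genes. The sum of the bile duct markers was higher in all NAMPT LKO livers and so moved with this contrast. Its part in the contrast was not tested.

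The 10 genes differed widely in how far mice of the same group stood apart. The SD within groups on the log2 scale was 0.79 for Ciart, 0.65 for Dbp, 0.61 for Cry1, 0.52 for Per2, 0.45 for Nfil3 and 0.40 for Per3. It was 0.26 for Cry2 and Tef, 0.22 for Per1 and 0.16 for Hlf, where the median over all genes tested was 0.23. The highest NAMPT LKO liver exceeded the lowest 4.98-fold for Cry1 and 4.23-fold for Ciart, but 1.21-fold for Hlf. Among the WT fasting livers the range was 6.02-fold for Ciart and 3.25-fold for Per2.

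These differences between mice were shared by several of the genes. WT fasting liver 1 was the lowest of its group for Per1, Per2, Per3, Cry2, Ciart, Dbp and Tef, and the highest for Nfil3. In each of the 3 groups the liver with the most Nfil3 had the least Dbp and the least Per3, namely WT refed liver 2, WT fasting liver 1 and NAMPT LKO liver 3. This pattern was noticed after the values were seen and is given as a description.

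Ratios of genes within a library, which do not depend on scaling between libraries, were also computed. The log2 ratio of Per2 over Per1, computed from RPKM and chosen after the values were seen, was 0.35 and 0.25 in WT refed livers. It was -3.05, -2.18 and -1.60 in WT fasting livers and -2.50, -1.83, -1.82, -1.96 and -1.91 in NAMPT LKO livers. The 2 transcripts were thus at about equal levels after refeeding, and Per1 exceeded Per2 in all 8 fasted livers. The log2 ratio of Dbp over Nfil3, activator over repressor at the D-box, was 1.04 and -0.74 in WT refed livers. In WT fasting livers it was -3.54, -1.36 and -2.30, and in NAMPT LKO livers -1.45, -1.46, -3.55, -1.69 and -1.49. Every fasted liver lay below both refed livers, and NAMPT LKO liver 3 stood apart from its group. The log2 ratio of Per1 over Cry1 was 0.91 and 0.76 in WT refed livers and 1.49 to 2.23 in WT fasting livers, with NAMPT LKO livers on both sides at 0.49 to 3.37. The log2 ratio of Per2 over Per3 was 2.37 and 2.93 in WT refed livers, 1.11 to 2.21 in WT fasting livers and 0.91 to 2.38 in NAMPT LKO livers.

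**Figure D4:**
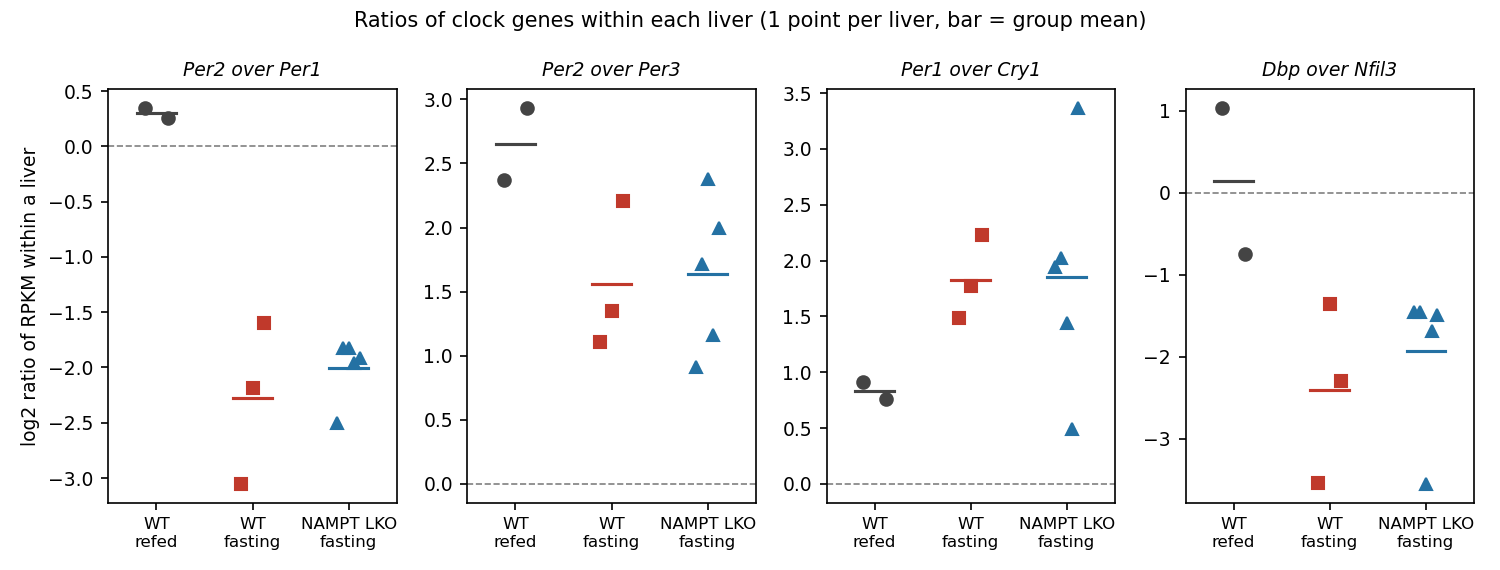
Log2 ratio of RPKM within each liver (y axis) for 4 pairs of genes, with 1 point per liver and bars for group means. Per2 over Per1 and Dbp over Nfil3 are lower in all 8 fasted livers than in both WT refed livers.

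For the 4 genes called in at least 1 comparison, the most similar profiles over the 10 livers were sought among the 9171 genes whose mean reached 5 CPM. Likeness was the root mean square difference of centred log2 CPM, so that smaller is more alike. Closest to Ciart were Usp2 (0.41), Bhlhe40 (0.53) and Per2 (0.53), of which Usp2 encodes a deubiquitinase and Bhlhe40 the repressor DEC1. Closest to Dbp were Thrsp (0.43), Per3 (0.44) and Hsd3b2 (0.45). Per2 lay nearest to Mtss1 (0.28), Pdia4 (0.33) and B4galt5 (0.33), and Per1 nearest to Gm9826 (0.15), Cyp2d11 (0.16) and Ankra2 (0.17). The profiles of Ciart and Dbp had an SD of 1.03 and 0.91 over the livers, against 0.33 for Per1, so that the same difference means more for Per1.

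Of 9 other core clock genes, 1 was called in WT fasting against WT refed livers, where 7.04% of all genes tested were called. Bhlhe41, which encodes the E-box repressor DEC2, was at 11.2 and 7.24 CPM in WT refed livers, at 0.862, 0.806 and 2.65 CPM in WT fasting livers and at 1.17 to 2.76 CPM in NAMPT LKO livers. It was lower by 2.66 on the log2 scale in WT fasting than in WT refed livers (standard error 0.50, adjusted p = 0.0105). In NAMPT LKO fasting against WT refed livers it was lower by 2.41 (standard error 0.42, adjusted p = 0.00531). Without WT fasting liver 3 the first value was -3.47, and without WT refed livers 1 and 2 its adjusted p was 0.101 and 0.0533. Without WT refed liver 1 the adjusted p of the second was 0.0852. In NAMPT LKO fasting against WT refed livers 2 of the 9 were called, Bhlhe41 and Rora, where 11.2% of all genes were called. Rora, an activator at ROR elements, was at 101 ± 13.1 CPM (SD, n = 5) against 67.1 ± 1.87 CPM (SD, n = 2) there. Its log2 fold change was 0.59 (standard error 0.13, adjusted p = 0.0186, and 0.138 and 0.202 without WT refed livers 1 and 2). Between the fasted genotypes 0 of the 9 passed by the quasi-likelihood test, DESeq2, voomWithQualityWeights or the exact test. In the first of these tests 0 had an unadjusted p under 0.05, against 6.03% of all genes. The 2 lowest p-values there belonged to Bhlhe40 (log2 fold change -0.36) and Clock (0.12). The list's median log2 fold change was 0.04, 0.08 and 0.20 in WT fasting against WT refed, NAMPT LKO against WT fasting and NAMPT LKO fasting against WT refed livers. Over all genes these medians were 0.04, 0.00025 and 0.03.

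Of 11 genes whose products modify, degrade or bind PER and CRY proteins (the modifier list), the quasi-likelihood test called 0 in each comparison. At an unadjusted p under 0.05 there were 2, 0 and 1 in the order just given, against 22.3%, 6.03% and 26.1% of all genes. Voom with quality weights called 1 in WT fasting and 2 in NAMPT LKO fasting against WT refed livers, and DESeq2 and the exact test called 1 in NAMPT LKO fasting against WT refed livers. Usp2 had the largest values, with log2 fold changes of -1.09 (standard error 0.47, adjusted p = 0.193) in WT fasting and -1.37 (standard error 0.41, adjusted p = 0.0557) in NAMPT LKO fasting against WT refed livers. The second passed without NAMPT LKO liver 2 (adjusted p = 0.0348). Csnk1d, which encodes a casein kinase that phosphorylates PER, had 0.37 (adjusted p = 0.207) in the WT comparison, and Timeless had -0.41 (adjusted p = 0.231) in NAMPT LKO against WT refed livers. Between the fasted genotypes the casein kinase genes Csnk1d and Csnk1e had -0.25 and -0.19 (adjusted p = 0.837 and 0.839). The list's medians were -0.14, 0.02 and -0.09.

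Of 8 genes known as targets of the PAR-bZIP factors or of their downstream receptors, 3 were called in WT fasting against WT refed livers. The share called among all genes tested was 7.04%. Alas1, the rate-limiting enzyme of heme synthesis, fell from 681 and 1161 CPM in WT refed livers to 299.7, 280.2 and 410 CPM in WT fasting livers. This was a log2 fold change of -1.48 with a standard error of 0.29 (adjusted p = 0.0137). Por, which encodes the reductase that supplies electrons to cytochromes P450, rose by a log2 fold change of 0.77 (adjusted p = 0.0338), and Nr1i3, which encodes the receptor CAR, by 0.72 (adjusted p = 0.0392). The called genes thus moved in both directions while Dbp fell, and the list's median was 0.36. In NAMPT LKO fasting against WT refed livers 3 of the 8 were called, where 11.2% of all genes were called. There Alas1 fell by 1.37 (adjusted p = 0.00766), and Por rose by 0.72 (adjusted p = 0.0264). Ppara, the fatty acid receptor, rose by 0.53 (adjusted p = 0.0454), and the list median was 0.09, against 0.03 over all genes.

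Single livers decided several of these calls. Alas1 lost its call in WT livers without WT refed liver 2 (log2 fold change -1.05, adjusted p = 0.196) or WT fasting liver 2 (adjusted p = 0.0567), and in NAMPT LKO against WT refed livers without WT refed liver 2 (adjusted p = 0.178). Por was not called in WT livers without any 1 of the 5 libraries (adjusted p from 0.0527 to 0.313). In NAMPT LKO against WT refed livers it was lost without WT refed livers 1 and 2 (0.117 and 0.288) and without NAMPT LKO livers 2 and 3 (0.0504 and 0.0507). Nr1i3 was kept only without WT fasting liver 3, with adjusted p-values of 0.108 to 0.349 otherwise. Ppara was lost without WT refed livers 1 and 2 (0.0920 and 0.460) and NAMPT LKO livers 2, 3 and 4 (0.0894, 0.0868 and 0.0574).

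Between the fasted genotypes the quasi-likelihood test called 0 of the 8 target genes, with 2 at an unadjusted p under 0.05, against 6.03% of all genes. Cyp2b10, a cytochrome P450 induced through CAR, was at 18.2, 69.1 and 31.5 CPM in WT fasting livers and at 6.61, 11.7, 4.91, 11.4 and 15.0 CPM in NAMPT LKO livers, and the groups did not overlap. Its log2 fold change was -1.996 (standard error 0.42, adjusted p = 0.535), and it passed with DESeq2 (adjusted p = 0.000719), the exact test (0.00252) and no filter (0.0125). Over all alternatives the adjusted p reached 0.921. The WT refed livers were at 14.3 and 10.9 CPM, within the NAMPT LKO range. Nr1i3 had a log2 fold change of -0.41 (adjusted p = 0.798) in the same comparison. The list's median was -0.10.

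**Figure D5:**
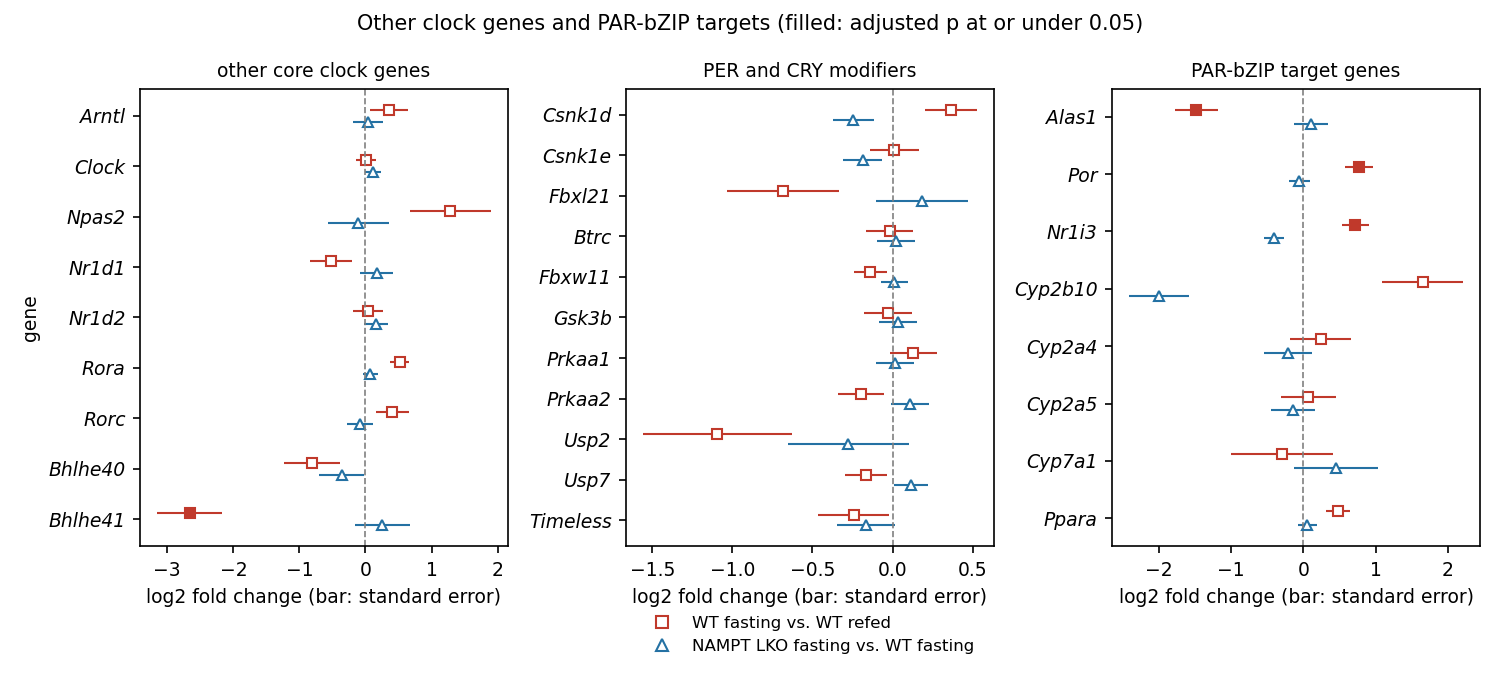
Log2 fold change (x axis) with its standard error for the other core clock genes, the modifiers of PER and CRY and the PAR-bZIP target genes, in WT fasting against WT refed livers (squares) and NAMPT LKO fasting against WT fasting livers (triangles). Filled symbols passed an adjusted p of 0.05: Bhlhe41, Alas1, Por and Nr1i3, all in the WT comparison.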

How the data were processed

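Per the labels (the submitters' processing notes), the authors used STAR 2.5.1a for alignment to GRCm38 and featureCounts 1.4.6-p5 to count the unique alignments on Ensembl genes. The study's methods name other versions of both tools. The authors deposited raw counts, CPM and RPKM for each library. The deposited CPM and RPKM were checked to follow from the deposited counts, the library total and the exonic length. After removal of rRNA genes, those exceeding 1 CPM in 1 or more libraries were retained. TMM normalization and testing used edgeR 4.0.16 in R 4.3.3 (quasi-likelihood test, 1 mean per group, all 10 libraries, Benjamini-Hochberg adjustment), and the script was tested on simulated data. Alternatives used DESeq2 1.42.0, voomWithQualityWeights of limma 3.58.1, edgeR's exact test, other scalings, filters and sets of libraries, and a replicate block.

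The 10 members and the lists were chosen with earlier results of these data known. Named genes are the members, every list gene called in a comparison or otherwise the 2 lowest p-values of the list, and the 3 most similar profiles of each called member. No duplicate libraries were found. 1 gene of the modifier list is not reported here.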

Additional observations from a re-analysis of the deposited data

Results flagged for a closer look

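Of 14 quantities tested for a stray liver among the 5 NAMPT LKO mice (the 10 genes and 4 ratios), 2 had 1 liver far from the other 4. For the log2 ratio of Dbp over Nfil3, NAMPT LKO liver 3 was at -3.55 against -1.69 to -1.45 in the others, and its gap to the nearest liver took up 0.889 of the whole range, above Dixon's limit of 0.71 for 5 samples. The same liver had the lowest Dbp and the highest Nfil3 of the group, and neither gene alone passed the limit. For the log2 ratio of Per2 over Per1, NAMPT LKO liver 1 was at -2.50 against -1.96 to -1.82, with a gap of 0.799 of the range. Chance flags about 1 in 20 such groups, and the ratios share genes with the single values.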

How the results depend on the processing

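The directions of the called members held under every alternative run, while the number of calls depended on single livers. Of 819 values recomputed for single genes, 724 kept direction and side of the threshold, 61 were no longer called, 17 were newly called and 17 changed sign. The 3 members called in WT fasting against WT refed livers became 1 (Per1) with only these 2 groups in the fit and 0 to 1 with each library left out in turn. The 3 called in NAMPT LKO fasting against WT refed livers became 0 to 3 with a library left out. When a WT refed liver was left out, the lone one was assumed to vary like the other groups. The calls over all genes were 946, 1 and 1510 in WT fasting against WT refed, NAMPT LKO against WT fasting and NAMPT LKO fasting against WT refed livers. Leaving out each library gave 107 to 786, 1 to 2 and 227 to 2835. DESeq2 gave 1646 and 24 in the first and second, voomWithQualityWeights 3331 and 4281 in the first and the last, and the fit of only 2 groups 1649 in the first. In the second comparison the exact test gave 24, library size alone 2, no filter 17, filterByExpr 3 and libraries 1 to 3 alone 0. Of the calls in the first and last comparison 38.1% and 41.4% were higher, and 25.7% and 26.1% with library size alone. Other core clock genes called were 2 with DESeq2, 5 with voomWithQualityWeights, 2 with only 2 groups and 0 to 3 with a library left out in the first comparison, and 4 with voomWithQualityWeights and 0 to 2 with a library left out in the last. Modifiers of PER and CRY called were 1 with voomWithQualityWeights in the first comparison. In the last they were 1 with DESeq2, the exact test, library size alone, no filter or only 2 groups, 2 with voomWithQualityWeights and 0 to 1 with a library left out. PAR-bZIP target genes called were 5 with voomWithQualityWeights, 1 with library size alone and 0 to 2 with a library left out in the first comparison, 1 with DESeq2, the exact test or no filter in the second, and 1 with library size alone or only 2 groups and 0 to 3 with a library left out in the last. The causes were not tested.

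Sign changes concerned genes that were not called in the comparison concerned. Between the fasted genotypes voomWithQualityWeights gave Per2 0.0196, Cry2 0.0205, Hlf -0.0139 and Bhlhe40 0.12. With a library left out these ranged from -0.58 to 0.17 for Per2, -0.17 to 0.0609 for Cry2, -0.0399 to 0.18 for Hlf, -0.67 to 0.31 for Bhlhe40, -0.10 to 0.48 for Dbp and -0.42 to 0.0471 for Per3. In WT fasting against WT refed livers Tef ranged from -0.31 to 0.14 and Hlf from -0.26 to 0.0231, and in NAMPT LKO fasting against WT refed livers Hlf ranged from -0.21 to 0.0766.

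NAMPT LKO and WT fasting livers share the numbers 1 to 3 in their labels. Same-numbered livers deviated together with correlations of 0.06, 0.09 and 0.17, and other pairs had -0.12 to -0.0016. The number was not taken as a pairing because the first were not all above 0.1, an arbitrary limit. Each of these livers nevertheless correlated best with its own number. Deviations from a group mean cancel within the group, so these correlations are not independent, and the check cannot decide on a pairing. With the replicate block, fitted to the libraries numbered 1 to 3, 0 members and 0 genes were called. At an unadjusted p under 0.05 there were 2 members and 875 of all genes. Without the block the same libraries gave 0 and 0 called, and 1 member and 822 of all genes at an unadjusted p under 0.05.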
